A study of Mus musculus with 6 samples.

Results

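The CD28, CD2 and SLAM family costimulators are surface receptors that set how strongly a T cell answers its antigen, and 10 of them were followed here by their transcripts: Cd28, Icos, Cd2, Cd48, Slamf1, Slamf6, Slamf7, Cd5, Cd6 and Cd226. They were taken by gene symbol from a table of 25638 genes, a choice made with earlier results of these data known. All 10 were present and passed the filter on low values that left 10727 genes for testing. Cd5 and Cd6 belong to the scavenger receptor cysteine-rich family rather than to the families in the set's name, and Cd226 is a receptor of the nectin-binding group.

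The cells were mouse OT-I cells, CD8+ T cells with a transgenic receptor for an ovalbumin peptide, with the genotype given as WT in every library. All 6 libraries came from T cells stimulated with the peptide OVA257-264 for 48 hours, so that each group, controls included, was peptide-stimulated. Of these, 2 libraries came from cells cultured with vehicle, 2 from cells cultured with TANs (sorted as CD11b+Ly6G+Ly6Clow) and 2 from cells cultured with TAMos (sorted as CD11b+Ly6G-Ly6Chigh), both sorted from spleens of mice bearing LLC tumours. After the culture, activated T cells were purified (method and purity not given in the sources used here) and sequenced in bulk. The labels do not say that replicate libraries were made from different cultures or mice, so p-values measure only the spread between these libraries, which may be technical.

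A T cell receptor signal is read together with signals from costimulators, which bind partners on the cell that presents the antigen or on a neighbouring T cell. CD28 and its inducible relative ICOS recruit PI3-kinase through their tails, and CTLA4 competes with CD28 for the same B7 ligands. CD2 binds CD48 in the mouse, most SLAM receptors bind their own kind on another cell and signal through the small adaptor SAP, and CD5 and CD6 sit near the receptor complex and adjust its signal.

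Values are FPKM, fragments per kilobase of transcript scaled to the depth of the library, so levels of different genes can be set side by side per length. Changes were fitted with limma on log2(FPKM + 1) over the 6 libraries and all 10727 tested genes, and a gene was called at an adjusted p (Benjamini-Hochberg over all tested genes) under 0.05. A fitted log2 change understates the change of a gene near 1 FPKM, such as Slamf6. A fold is the ratio of mean FPKM, and the standard error (SE) belongs to the log2 change.

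The libraries carried the transcripts of CD8+ T cells. Cd8a lay between 94.5 and 152 FPKM, Cd8b1 between 198 and 208 and Cd3e between 102 and 144, while Cd4 stayed at or below 0.156 and Foxp3 at or below 0.0782. Whole-read steps in the low FPKM values put the depth at 41.7 M to 45.3 M reads per library. Even values made up 98.3% of the implied reads per gene in TAMo library 1 and 60.1% to 63.5% in the other 5 libraries, so that its depth may instead be 21.9 M. Of 14 neutrophil markers none reached 1 FPKM in any library, and 7, among them S100a8 and S100a9, were at 0 in all 6. Their summed level was 0.0492 to 0.0615 FPKM with vehicle, 0.0739 to 0.14 with TAN and 0.335 to 0.584 with TAMo. Of 15 monocyte and macrophage markers 6 reached 1 FPKM, and their sum was 84.1 to 89.1 FPKM with vehicle, 64.7 to 67.1 with TAN and 44.4 to 45.9 with TAMo. With vehicle and TAN most of that sum was Ly6c2 (means of 29.8, 22.7 and 4.01 FPKM with vehicle, TAN and TAMo) and Cebpb (35.8, 23.5 and 11.3). Both were called lower in each coculture. With TAMo the largest mean was that of Ctss (14.9, 13.8 and 14.5 FPKM in the same order), which was not called. The other markers called with TAMo, Cd14, Cd68 and Ms4a6c, were higher by log2 changes of 1.90, 0.75 and 0.91. Cd14 passed the filter on low values only through the TAMo libraries. The defining monocyte genes Lyz2, Csf1r and Adgre1 were at most 0.182, 0.0361 and 0.0452 FPKM, whereas Cd14 was 2.84 and 3.17 FPKM with TAMo against 0.0852 or less elsewhere. In bulk RNA, fewer cells of a type and less RNA per cell cannot be told apart, and the part of these markers in the results below was not tested.

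With TAMo the set divided into receptors that rose and the single receptor that fell. Against vehicle, 8 of the 10 rose (Cd28, Icos, Cd48, Slamf1, Slamf6, Slamf7, Cd5 and Cd6), Cd2 fell and Cd226 was not called. Over all tested genes 45.7% were called higher and 40.7% lower in that comparison. The median log2 change was 0.93 for the 10 costimulators and 0.06 for all tested genes. In 4 of them, Cd28, Cd5, Cd6 and Slamf7, the rise was at least 1 on the log2 scale, which 14.9% of tested genes reached as called rises.

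With TAN the changes were small and went both ways. Icos and Slamf7 rose, Cd5, Cd6, Slamf6 and Cd226 fell, and Cd28, Cd2, Cd48 and Slamf1 were not called. Over all tested genes 9.37% were called higher and 11.0% lower. The median log2 change was -0.04 for the costimulators and -0.0050 for all tested genes. None of the 10 reached a log2 change of 1 in either direction with TAN.

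**Figure D1:**
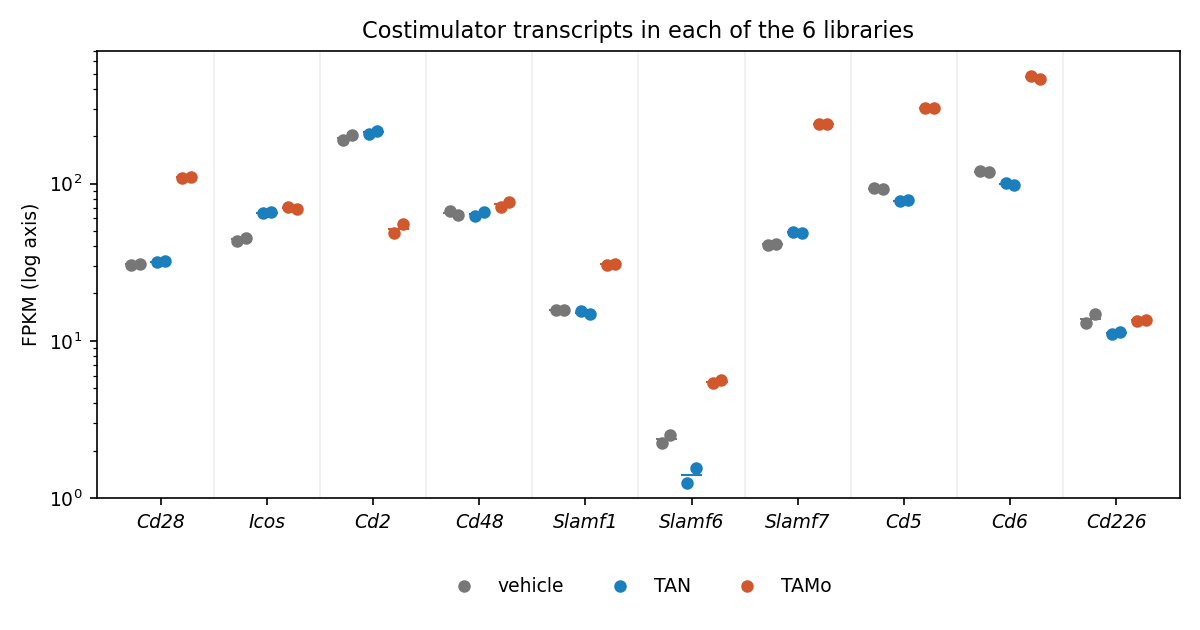
FPKM (log axis) of the 10 costimulators in each library; points are libraries, short lines are group means, and colours mark vehicle, TAN and TAMo. The TAMo points of Cd28, Slamf7, Cd5 and Cd6 stand apart above the others, those of Cd2 stand apart below, and the TAN points of Icos and Slamf6 are the ones farthest from their vehicle points.

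The same libraries set against each other directly put Cd2 higher with TAN than with TAMo and the other 9 lower. Without TAN library 1 the lower members numbered 7, since Icos and Cd226 (-0.25, limma adjusted p = 0.00995 with all libraries, and 0.0546 without that one) lost their calls. In that comparison 40.6% of tested genes were called higher and 46.0% lower. The comparisons with vehicle share the vehicle libraries, and both coculture comparisons share their libraries with this direct one, so the 3 sets of values are not independent.

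**Figure D2:**
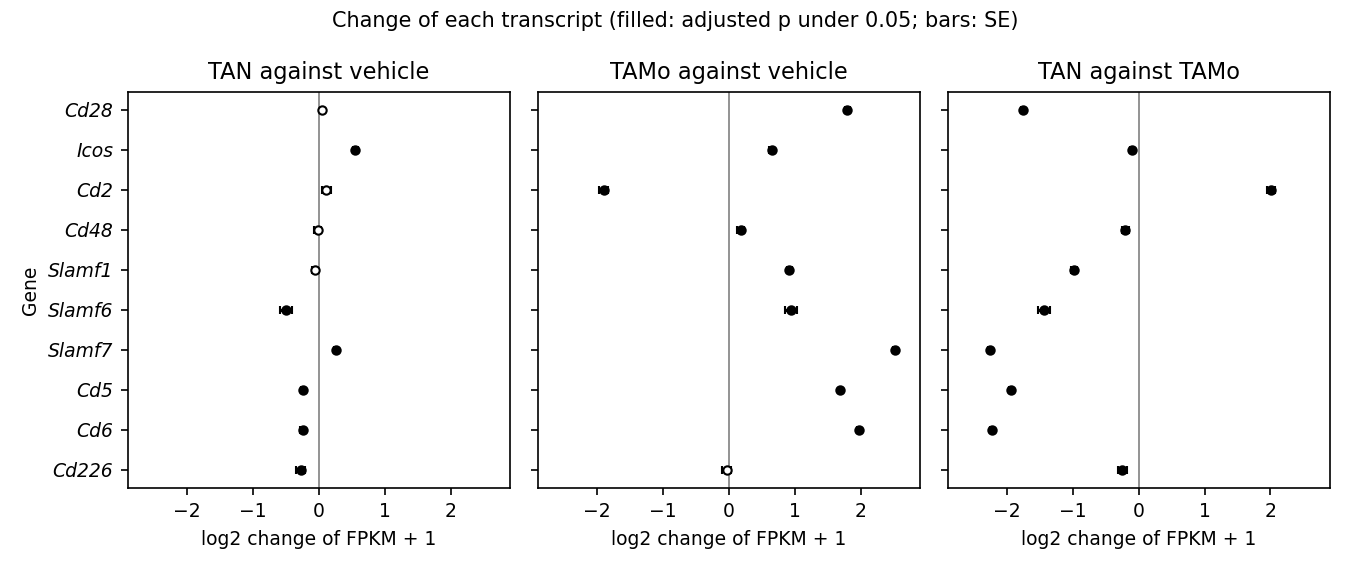
Log2 change (horizontal axis, on log2(FPKM + 1)) of each costimulator in a panel for each coculture against vehicle and a panel for TAN against TAMo; bars are ± 1 SE from limma, in part hidden by the points, filled points passed an adjusted p of 0.05 and open points did not. The TAMo values run from -1.90 for Cd2 to 2.52 for Slamf7, and the TAN values from -0.50 for Slamf6 to 0.55 for Icos.

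Cd28, the receptor for CD80 and CD86 that gives the classical second signal, read 30.4 and 30.9 FPKM in the vehicle libraries, 31.7 and 32.1 with TAN, and 109 and 110.0 with TAMo. Both TAMo libraries stood far above the other 4, and the TAN libraries lay just above the vehicle libraries without overlap. The rise with TAMo was 3.57-fold (log2 change 1.80, SE 0.031, limma adjusted p = 3.12e-09). The TAN difference of 0.05 (SE 0.031) was not called, with an adjusted p of 0.253.

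Icos, the costimulator that T cells put on their surface after activation, read 43.4 and 45.2 FPKM with vehicle, 64.8 and 65.5 with TAN, and 71.3 and 68.8 with TAMo. All 4 coculture libraries were above both vehicle libraries, and the TAMo libraries lay above the TAN libraries by a small margin. Its rise was 1.47-fold with TAN (log2 change 0.55, SE 0.035, limma adjusted p = 0.000282) and 1.58-fold with TAMo (0.65, SE 0.035, adjusted p = 1.05e-06). On the log2(FPKM + 1) scale this was the largest absolute change of the 10 with TAN, whereas by ratio of mean FPKM Slamf6 changed more (1.71-fold). The TAN minus TAMo difference of -0.10 (SE 0.035) passed at an adjusted p of 0.0257 and ended at 0.103 without TAN library 1, 0.0719 without TAN library 2 and 0.113 without TAMo library 1. Scaling the libraries by their median ratio reduced it to -0.03, with an adjusted p of 0.396.

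Cd28 and Icos lie on either side of Ctla4, in 284 kb of chromosome 1 (GRCm38, with Cd28 at chr1:60716800-60773359, Ctla4 at chr1:60887000-60915832 and Icos at chr1:60977927-61000320). Ctla4, the inhibitory receptor for the same B7 ligands as CD28, read 436 and 447 FPKM with vehicle, 722 and 735 with TAN, and 219 and 226 with TAMo. It therefore rose with TAN (log2 change 0.72, limma adjusted p = 3.53e-05) and fell with TAMo (-0.99, adjusted p = 3.65e-08). Neighbours in this stretch of chromosome moved in 3 ways: Ctla4 in opposite directions, Icos up with both cell types, and Cd28 up with TAMo alone among the called changes.

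The ratio of Cd28 to Ctla4 in FPKM followed from these levels. It was 0.0697 and 0.0691 with vehicle, 0.0438 and 0.0436 with TAN, and 0.497 and 0.487 with TAMo. Ctla4 transcripts outnumbered Cd28 transcripts per length in all 6 libraries, by the widest margin with TAN and the narrowest with TAMo. The ratio of Icos to Cd28 went the other way, at 1.43 and 1.46 with vehicle, 2.05 and 2.04 with TAN, and 0.654 and 0.625 with TAMo. Cd28 exceeded Icos only in the TAMo libraries. Such ratios are given as values, because 2 against 2 libraries cannot reach an exact two-sided permutation p below 0.333.

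**Figure D3:**
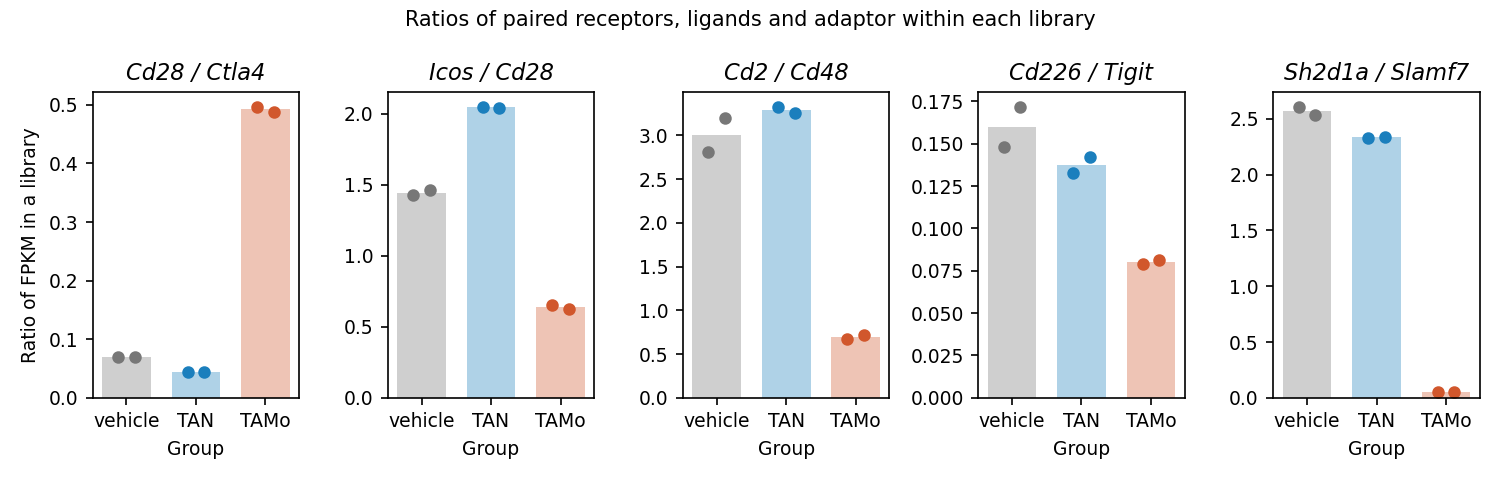
Ratio of FPKM (vertical axis, linear and from 0) in each library for 5 pairs of genes. The pairs are Cd28 to Ctla4, Icos to Cd28, Cd2 to Cd48, Cd226 to Tigit and Sh2d1a to Slamf7. A pair is not in each case a receptor with its own partner, since SLAMF7 is known to use EAT-2 rather than SAP. Points are libraries and bars are group means. The TAMo points lie apart from the vehicle and TAN points in every pair shown, above them for Cd28 to Ctla4 and below them for Cd2 to Cd48.

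Cd2, an adhesion receptor that tightens the contact between T cell and partner cell, read 189 and 203 FPKM with vehicle, 208 and 215 with TAN, and 48.2 and 55.3 with TAMo. Both TAMo libraries were far below the other 4, and the TAN libraries were above the vehicle libraries without overlap. The fall with TAMo was 3.79-fold (log2 change -1.90, SE 0.064, limma adjusted p = 8.34e-08). The TAN difference of 0.11 (SE 0.064) was not called, with an adjusted p of 0.279. Cd2 was 4.08-fold higher with TAN than with TAMo (adjusted p = 6.38e-08).

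Cd48, the ligand of CD2 in the mouse and itself a SLAM family member held in the membrane by a lipid anchor, read 67.2 and 63.4 FPKM with vehicle, 62.4 and 66 with TAN, and 71.4 and 76.6 with TAMo. The vehicle and TAN libraries overlapped, and the TAMo libraries were above both. Its rise with TAMo was 1.13-fold (log2 change 0.18, SE 0.049, limma adjusted p = 0.01). That call ended without vehicle library 2 (0.14, adjusted p = 0.073) and with median ratio scaling (0.12, adjusted p = 0.0506). The TAN difference was -0.02 (SE 0.049, adjusted p = 0.768).

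Receptor and ligand thus changed place in abundance. The ratio of Cd2 to Cd48 was 2.81 and 3.2 with vehicle, 3.33 and 3.26 with TAN, and 0.675 and 0.722 with TAMo. Cd2 was the more abundant transcript per length in the vehicle and TAN libraries, and Cd48 in the TAMo libraries. Set against Cd3e, which encodes a chain of the receptor complex, Cd2 stood at 1.84 and 1.98 with vehicle, 2.02 and 2.07 with TAN, and 0.335 and 0.409 with TAMo. Cd3e itself was called higher with TAMo, with a log2 change of 0.44. Cd2 lies at chr3:101275899-101287939, and of its tested neighbours Ttf2 and Ptgfrn fell with TAMo too, with log2 changes of -1.61 and -1.65. These neighbours were taken by position, after their values had been seen.

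Slamf7, a self-binding receptor of cytotoxic lymphocytes and plasma cells, read 40.5 and 41.5 FPKM with vehicle, 49.4 and 48.7 with TAN, and 238 and 241 with TAMo. The TAN libraries were a little above the vehicle libraries, and the TAMo libraries far above all others. The rise was 1.2-fold with TAN (log2 change 0.25, SE 0.029, limma adjusted p = 0.00213) and 5.84-fold with TAMo (2.52, SE 0.029, adjusted p = 7.05e-10). The TAMo change was the largest among the 10. An antisense gene, Gm37787, shares 423 of the 4577 exon bases that GENCODE M21 gives Slamf7, and the strand setting of the authors' counting was not given in the sources used here.

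Slamf1, the founding self-binding SLAM receptor, read 15.7 and 15.7 FPKM with vehicle, 15.4 and 14.7 with TAN, and 30.2 and 31 with TAMo. Both TAMo libraries stood above the rest, and the TAN libraries just below the vehicle libraries. The TAMo rise was 1.95-fold (log2 change 0.92, SE 0.044, limma adjusted p = 5.55e-07), and the TAN difference of -0.06 (SE 0.044) was not called, with an adjusted p of 0.42.

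Slamf6, also called Ly108 in the mouse and carried by less differentiated CD8+ T cells in chronic infection and tumours, was the least abundant of the 10. It read 2.25 and 2.52 FPKM with vehicle, 1.24 and 1.55 with TAN, and 5.37 and 5.6 with TAMo. The 3 groups did not overlap, with TAN lowest and TAMo highest. Slamf6 rose 2.3-fold with TAMo (log2 change 0.94, SE 0.091, limma adjusted p = 3.31e-05) and was 1.71-fold lower with TAN (-0.50, SE 0.091, adjusted p = 0.0117). The TAN call ended without vehicle library 2 (-0.44, adjusted p = 0.0753), without TAN library 1 (-0.40, adjusted p = 0.0674) and with no filter on low values (adjusted p = 0.0537). At the depths given above, the GENCODE exon length of 10832 bases makes these levels 603 to 2550 reads per library.

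Slamf7, Cd48, Slamf1 and Slamf6 lie together on chromosome 1, in 321 kb from Slamf7 (chr1:171632403-171653035) to Slamf6 (chr1:171917515-171953170), with Cd48 at chr1:171682009-171705258 and Slamf1 at chr1:171767127-171801184. All 4 were called higher with TAMo, with log2 changes from 0.18 for Cd48 to 2.52 for Slamf7. Over all tested genes 45.7% were called higher and 40.7% lower in that comparison. Cd84, a self-binding relative between Slamf1 and Slamf6, also rose with TAMo (7.74 ± 0.658 to 11.9 ± 0.702 FPKM, SD, n = 2, log2 change 0.56, limma adjusted p = 0.000218). Ly9, at the other edge of the cluster beside Slamf7, fell with TAMo (44.4 ± 0.138 to 26.3 ± 0.944 FPKM, log2 change -0.73, adjusted p = 2.62e-06). Ly9 overlaps Cd244a on the opposite strand, and Cd244a, listed as Cd244, was at 0.246 FPKM or less. Slamf8 and Slamf9 were at 0.0538 FPKM or less in every library. Of the 5 other SLAM genes, 2 were tested: with TAN neither was called, and with TAMo 1 was higher and 1 lower.

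The promoters of the 4 clustered members are shown because adjacent genes of the same family differed so widely in size of change. Each is the 250 bases before the start that RefSeq gives on GRCm38.p6, written 5′ to 3′ on the gene's strand. Capitals mark letters that match the AP-1 site TGANTCA, the NFAT core GGAAA or the STAT site TTCNNNGAA on either strand. The Slamf7 window is chr1:171649000-171649249 on the minus strand, downstream of the first GENCODE start of that gene. The others are on the plus strand, at chr1:171681742-171681991 for Cd48, chr1:171766882-171767131 for Slamf1 and chr1:171917212-171917461 for Slamf6.
Slamf7: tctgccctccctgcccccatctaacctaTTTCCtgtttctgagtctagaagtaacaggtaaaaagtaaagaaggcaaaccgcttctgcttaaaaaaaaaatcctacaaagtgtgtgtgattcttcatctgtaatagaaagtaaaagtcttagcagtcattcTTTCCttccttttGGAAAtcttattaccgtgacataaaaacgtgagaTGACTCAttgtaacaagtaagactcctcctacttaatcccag
Cd48: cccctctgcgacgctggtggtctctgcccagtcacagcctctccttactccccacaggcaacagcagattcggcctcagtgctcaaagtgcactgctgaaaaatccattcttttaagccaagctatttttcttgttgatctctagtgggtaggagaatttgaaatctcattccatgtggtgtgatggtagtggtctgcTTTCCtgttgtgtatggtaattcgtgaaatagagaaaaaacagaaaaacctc
Slamf1: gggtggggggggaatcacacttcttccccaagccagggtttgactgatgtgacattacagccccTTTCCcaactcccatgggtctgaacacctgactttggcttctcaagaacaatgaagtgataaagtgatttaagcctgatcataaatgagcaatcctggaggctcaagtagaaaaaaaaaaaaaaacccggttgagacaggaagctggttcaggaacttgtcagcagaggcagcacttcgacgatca
Slamf6: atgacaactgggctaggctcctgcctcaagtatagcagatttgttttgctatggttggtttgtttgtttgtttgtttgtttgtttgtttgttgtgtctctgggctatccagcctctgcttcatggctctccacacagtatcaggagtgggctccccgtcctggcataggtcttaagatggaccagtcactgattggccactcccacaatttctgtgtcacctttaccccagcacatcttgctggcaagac
The Slamf7 window held an AP-1 match beginning at -42 and NFAT core matches beginning at -222, -89 and -76, counted from the RefSeq start. The Cd48 window held an NFAT core match at -52 and the Slamf1 window an NFAT core match at -186, and in the Slamf6 window these letters did not occur. Among 32851 promoters of the same length, 6.75% held the AP-1 letters, 55.6% the NFAT core and 7.02% the STAT letters. The letters of the NFAT core and the STAT site can overlap. Windows were searched for 5 of the 10 members, and the window of Cd5 held no match. The promoters of the other members were not examined, so the absence of a window does not mean that a member has no promoter entry.

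**Figure D4:**
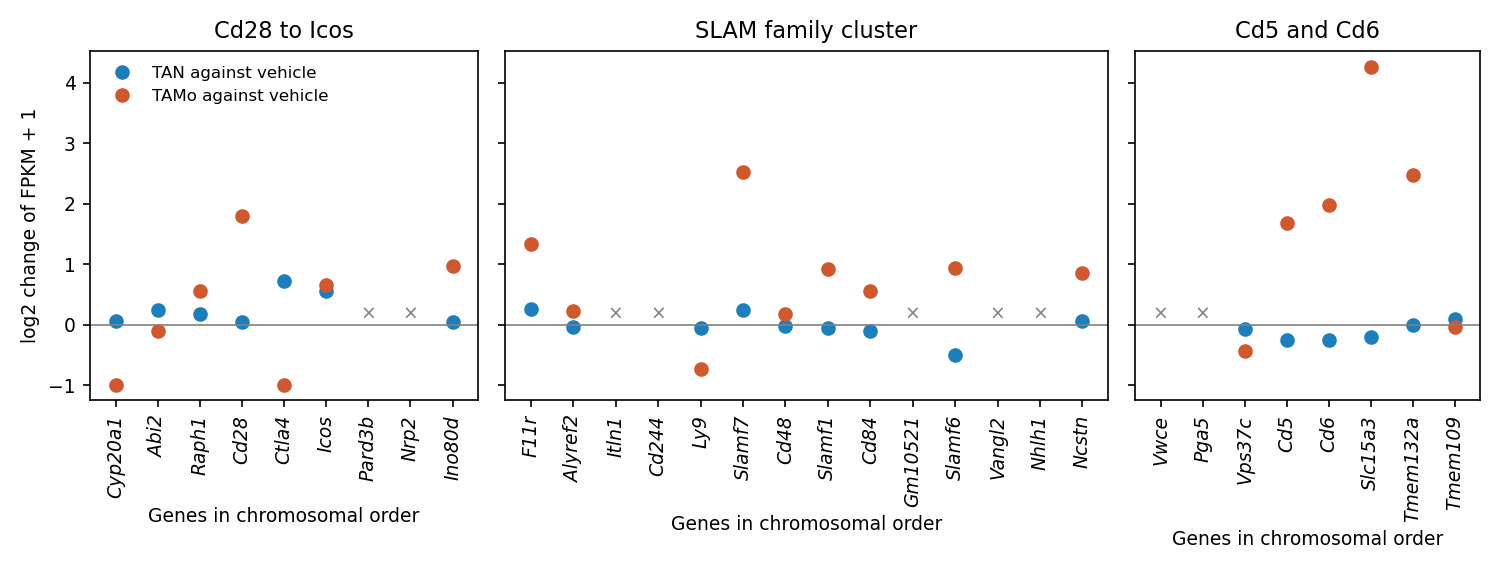
Log2 change (on log2(FPKM + 1)) of genes in chromosome order around Cd28 to Icos, the SLAM cluster, and Cd5 with Cd6, for TAN against vehicle and TAMo against vehicle; crosses mark genes under the filter, which have no fit, and their height is no value. With TAMo, Ctla4 lies below 0 between Cd28 and Icos, Ly9 lies below 0 beside Slamf7, and Slc15a3 at 4.27 lies beside Cd6.

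Sh2d1a, which encodes SAP, the adaptor through which most SLAM receptors signal, fell with TAMo. It read 106 and 105 FPKM with vehicle, 115 and 114 with TAN, and 12.3 and 11.6 with TAMo. Both TAMo libraries lay far below the other 4. The log2 change with TAMo was -3.04 (SE 0.037, limma adjusted p = 9.29e-10), and the TAN difference of 0.12 was not called, with an adjusted p of 0.0591, although it passed at 0.0113 when only the vehicle and TAN libraries were fitted. The ratio of Sh2d1a to Slamf6 was 47 and 41.6 with vehicle, 92.7 and 73.3 with TAN, and 2.29 and 2.06 with TAMo. The ratio of Sh2d1a to Slamf7 was 2.61 and 2.53 with vehicle, 2.33 and 2.34 with TAN, and 0.0519 and 0.0479 with TAMo, so that Slamf7 exceeded Sh2d1a in the TAMo libraries alone. SLAMF7 is known to use a related adaptor, EAT-2, whose genes Sh2d1b1 and Sh2d1b2 were listed at 0 in all 6 libraries. Of 10 genes of SAP family adaptors and SLAM signalling, 7 were tested. With TAN none was called. With TAMo 3 rose, Ptpn11 by 0.48, Fyn by 0.37 and Pik3c3 by 0.33 on the log2 scale, and Sh2d1a fell. These counts stand beside 45.7% of all tested genes called higher and 40.7% lower with TAMo, and 9.37% and 11.0% with TAN.

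Cd5, a scavenger-family receptor that damps T cell receptor signalling and whose surface level tracks its strength, read 93.8 and 92.3 FPKM with vehicle, 77.8 and 78.2 with TAN, and 303 and 302 with TAMo. The groups did not overlap, with TAN lowest and TAMo highest. Cd5 fell 1.19-fold with TAN (log2 change -0.25, SE 0.025, limma adjusted p = 0.00127) and rose 3.25-fold with TAMo (1.69, SE 0.025, adjusted p = 1.8e-09).

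Cd6, its relative and the receptor for ALCAM, read 119.7 and 118 FPKM with vehicle, 101 and 98.4 with TAN, and 484 and 463 with TAMo. The order of the groups was that of Cd5. Cd6 fell 1.19-fold with TAN (log2 change -0.25, SE 0.032, limma adjusted p = 0.00311) and rose 3.98-fold with TAMo (1.98, SE 0.032, adjusted p = 2.39e-09). Alcam, its ligand, was itself transcribed by these cells at 19 ± 0.34 FPKM with vehicle, 26 ± 0.607 with TAN and 27.4 ± 0.125 with TAMo (SD, n = 2). Alcam rose in both comparisons (0.43, adjusted p = 0.000989 with TAN, and 0.50, adjusted p = 9.53e-06 with TAMo), so that with TAN ligand and receptor moved in opposite directions.

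Cd5 (chr19:10717116-10739002) and Cd6 (chr19:10789341-10830058) are neighbours on the same strand, 50.3 kb apart. The ratio of Cd5 to Cd6 was 0.783 and 0.779 with vehicle, 0.768 and 0.795 with TAN, and 0.626 and 0.652 with TAMo. It was lower in both TAMo libraries than in the other 4. Beside Cd6, the peptide and histidine transporter gene Slc15a3 had means of 5.48 FPKM with vehicle, 4.66 with TAN and 124 with TAMo (log2 change 4.27 with TAMo, limma adjusted p = 1.24e-09), and Tmem132a rose by 2.48. Beyond Tmem132a on that side, Tmem109 was not called with TAMo (-0.03, adjusted p = 0.519). On the other side of Cd5, Vps37c fell by 0.43. These neighbours were taken by position, after their values had been seen.

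Cd226, an activating receptor that shares the ligand PVR with the inhibitory receptor TIGIT and with CD96, read 12.9 and 14.8 FPKM with vehicle, 11 and 11.4 with TAN, and 13.4 and 13.6 with TAMo. The vehicle and TAMo libraries overlapped, and the TAN libraries were below both. With TAMo the difference was -0.03 (SE 0.069, limma adjusted p = 0.714). With TAN it was 1.24-fold lower (-0.28, SE 0.069, adjusted p = 0.0308), a call that ended without vehicle library 2 (-0.19, adjusted p = 0.125), TAN library 1 (0.142) or TAN library 2 (0.11), with no filter (0.0889) and without the variance trend (0.0502).

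The rivals of CD226 rose with TAMo, where Cd226 was not called. Tigit rose with TAMo from 86.4 ± 0.447 to 168 ± 1.44 FPKM (SD, n = 2, log2 change 0.95, limma adjusted p = 4.28e-08), and Cd96 from 13.6 ± 0.691 to 32.5 ± 0.585 (1.20, adjusted p = 3.32e-07). The ratio of Cd226 to Tigit was 0.148 and 0.172 with vehicle, 0.133 and 0.142 with TAN, and 0.079 and 0.0814 with TAMo. The ratio of Cd226 to Cd96 was 0.983 and 1.05 with vehicle, 0.942 and 1.03 with TAN, and 0.406 and 0.425 with TAMo. Both ratios were lowest in the TAMo libraries, and for Cd96 the vehicle and TAN libraries overlapped. Pvr, the shared ligand, rose with TAMo from 9.74 ± 0.447 to 13.9 ± 0.819 FPKM (0.47, adjusted p = 0.0003).

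The order of the 10 by FPKM changed with TAMo. With vehicle it ran Cd2, Cd6, Cd5, Cd48, Icos, Slamf7, Cd28, Slamf1, Cd226 and Slamf6, each pair of neighbours being separated in both libraries. With TAN only Icos and Cd48 changed places, and their libraries overlapped. With TAMo it ran Cd6, Cd5, Slamf7, Cd28, Cd48, Icos, Cd2, Slamf1, Cd226 and Slamf6, again with no overlap between neighbours. Cd48 and Icos were barely separated, at 71.4 and 71.3 FPKM in TAMo library 1. Cd2 thus went from rank 1 to rank 7, and from the 95.7th to the 80th percentile of tested genes. Slamf7 went from the 74.8th to the 97th percentile and Cd28 from the 67.7th to the 91.5th.

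The summed level of the 10 was 615 and 628 FPKM with vehicle, 623 and 631 with TAN, and 1374 and 1368 with TAMo. Cd2 made up 30.8% to 32.3% of that sum with vehicle, 33.4% to 34% with TAN and 3.51% to 4.04% with TAMo. Cd6 made up 18.9% to 19.5%, 15.6% to 16.3% and 33.9% to 35.3%. The sum was alike in the vehicle and TAN libraries, and in the TAMo libraries it was higher and led by another gene.

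Other genes of these pathways were described from fixed lists, whose counts stand beside 9.37% higher and 11.0% lower over all tested genes with TAN, and 45.7% and 40.7% with TAMo. Of 10 ligands and counter-receptors, 6 were tested: with TAN 1 rose (Alcam), and with TAMo 5 rose and Icosl fell (-0.49, limma adjusted p = 0.00341). Cd80, a ligand of both CD28 and CTLA4 that activated T cells can carry, rose with TAMo from 20.1 ± 1.81 to 41.7 ± 2.7 FPKM (SD, n = 2, log2 change 1.02, adjusted p = 3.65e-06). Cd86 read 2.63 and 2.98 FPKM with vehicle and 4.63 and 3.4 with TAMo (0.39, adjusted p = 0.0216), a call that ended without vehicle library 1 or TAMo library 1 and with no filter. Of 7 inhibitory relatives, 6 were tested. With TAN 1 rose (Ctla4) and 3 fell (log2 changes of -0.38 for Pdcd1, -0.23 for Cd96 and -0.22 for Btla), a count of falls that became 1 without vehicle library 2, TAN library 1 or TAN library 2. With TAMo 4 rose, Vsir by 1.25, Cd96 by 1.20, Tigit by 0.95 and Btla by 0.17, and 2 fell, with log2 changes of -1.12 for Pdcd1 and -0.99 for Ctla4.

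Downstream of CD28 and ICOS, 20 genes were listed and tested. With TAMo 16 rose and 3 fell, where 45.7% of all tested genes were called higher and 40.7% lower, and the median log2 change was 0.42. Pik3r2, a regulatory subunit of PI3-kinase, fell from 44.1 ± 0.0466 to 6.83 ± 0.238 FPKM (SD, n = 2, log2 change -2.53, limma adjusted p = 5.51e-09). The adaptor genes Grap2 and Gab2 rose by 1.20 and 1.11, and the paracaspase gene Malt1 by 1.08. Gab2, with means of 0.424 FPKM with vehicle and 2.07 with TAMo, passed the filter on low values only through the TAMo libraries. Its place among the 16 rises therefore depended on the group where it was high. With TAN 3 rose and 3 fell, near the shares of 9.37% and 11.0% over all tested genes, with a median of -0.01. The adaptor gene Lcp2 fell by 0.29, while Grap2 rose by 0.27 and Pik3ca by 0.24. The Pik3ca call ended when any single vehicle or TAN library was left out, with log2 changes of 0.23 to 0.25. The count of rises with TAN was 1 without vehicle library 1, vehicle library 2 or TAN library 2.

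The 17 listed partners of CD2, CD5 and CD6 gave 10 rises and 4 falls with TAMo, with a median log2 change of 0.30, beside 45.7% of all tested genes called higher and 40.7% lower. Among them rose Cblb (81.4 ± 0.939 to 307 ± 3.59 FPKM, SD, n = 2, log2 change 1.90, limma adjusted p = 2.69e-09) and Cbl (1.06), ubiquitin ligases that restrain T cell signalling. Themis, a signalling protein of developing T cells, rose by 1.69 and Sh3kbp1, an adaptor that binds CBL and the tail of CD2, by 1.63. With TAN 3 rose and 3 fell, beside 9.37% and 11.0% of all tested genes, with a median of -0.01. Themis rose by 0.35 and Csnk2a1 by 0.33, and Ubash3a fell by 0.30 and Pstpip1 fell by 0.24. The Pstpip1 call ended without vehicle library 1 (-0.25), vehicle library 2 (-0.23) or TAN library 2 (-0.23). The count of falls with TAN was 1 without vehicle library 1 or vehicle library 2.

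Of 8 regulators linked to Icos and Cd28 mRNA or to restraint of activation, 7 rose and 1 fell with TAMo, with a median log2 change of 1.18, beside the same 45.7% and 40.7% of all tested genes. Bach2, a transcription factor that restrains effector differentiation, rose from 10.8 ± 0.0159 to 83.3 ± 1.38 FPKM (SD, n = 2, log2 change 2.83, limma adjusted p = 2.92e-09). Zc3h12d and Zc3h12a, which encode RNA-degrading zinc finger proteins of the Regnase family, rose by 1.95 and 1.26, and Zfp36l1, which encodes a protein that destabilises AU-rich mRNAs, by 1.76. With TAN none rose and Bach2 fell by 0.20 (adjusted p = 0.0254), a call that ended without vehicle library 1, vehicle library 2 or TAN library 1.

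**Figure D5:**
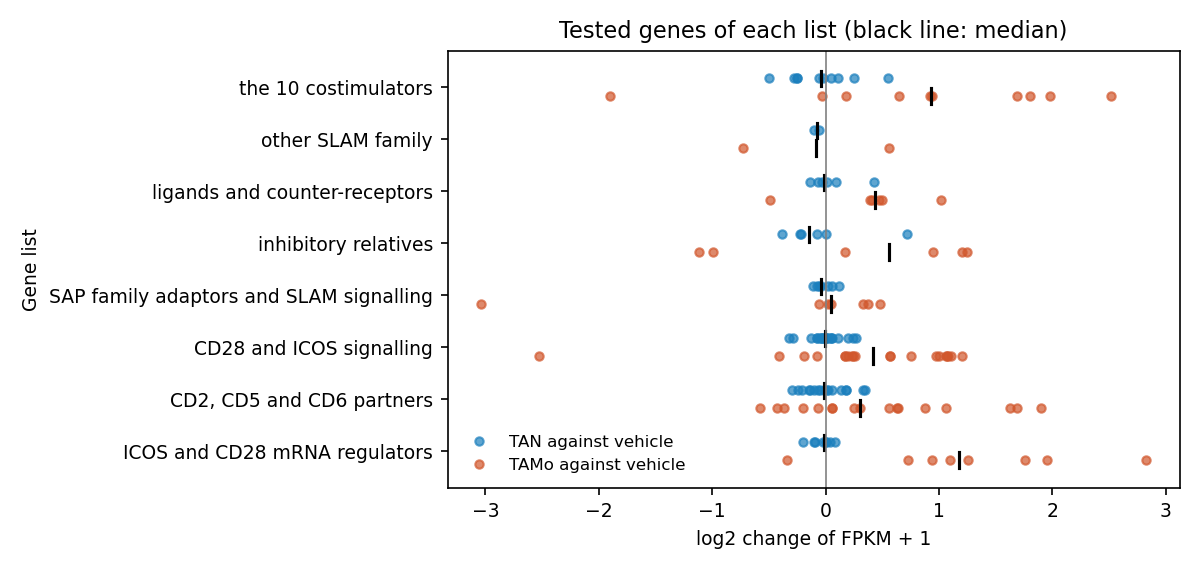
Log2 change (on log2(FPKM + 1)) of every tested gene of the costimulator set and of the related lists, for TAN against vehicle and TAMo against vehicle; points are genes, and black lines are list medians. The TAMo points spread much wider than the TAN points in the lists shown. With TAMo the medians were 0.93 for the costimulators and 1.18 for the list labelled ICOS and CD28 mRNA regulators. That list also holds regulators linked to restraint of activation, among them the transcription factor Bach2.

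The genes with profiles most like the members that changed most were found by the Euclidean distance between centred log2 profiles over the 6 libraries, among 8829 tested genes with at least 5 FPKM in their highest group. Those nearest to Icos, which had the largest change with TAN on log2(FPKM + 1) but not by fold, were Sgk1 (distance 0.14; means of 7.85, 12.1 and 13.4 FPKM with vehicle, TAN and TAMo), Basp1 (0.14; 68.4, 92.2 and 104) and Thra (0.15; 3.67, 6.11 and 6.75). Those nearest to Slamf7, which had the largest change with TAMo, were Acad11 (distance 0.11; means of 2.49, 2.95 and 18.9 FPKM), Crybg1 (0.13; 19.2, 23.5 and 125) and Sdc4 (0.14; 5.27, 7.04 and 34.9). Likeness is a description over 6 libraries that share their groups.

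Markers of other lymphocytes moved across the groups as well. Of 5 markers of CD4+ and regulatory T cells, 3 reached 1 FPKM, and their sum was 19.7 to 20.1 FPKM with vehicle, 27.9 to 28.1 with TAN and 43.9 to 47.3 with TAMo, with Cd4 and Foxp3 near 0. Different genes carried these sums: with TAN Cd40lg (3.28 to 6.31 FPKM) and Ikzf4 (6.64 to 11.5) were called higher and Zbtb7b was not called (9.87 to 10), and with TAMo Zbtb7b made most of the difference (9.87 to 32.9). The sum of 7 natural killer cell markers was 49.9 to 50.7, 37.7 to 40.9 and 29 to 30.9 FPKM. Only 2 of them reached 1 FPKM, Klrk1 (means of 36.3, 21.8 and 18.5 FPKM) and Eomes (13.8, 17 and 11.3). With TAN Klrk1 was called lower (log2 change -0.72) and Eomes higher (0.29), and with TAMo both were called lower. The sum of 8 B cell markers was 9.84 to 11.2, 9.36 to 11.1 and 7.91 to 8.88, and that of 12 dendritic cell and MHC class II markers was 212 to 219, 218 to 225 and 76.3 to 82.4. Batf3 made up most of the last sum with vehicle and TAN (means of 129, 155 and 11.5 FPKM in the same order). Of the same list, Cd74, H2-Ab1 and H2-Eb1 were called lower with TAN. With TAMo 2 were called higher, Zbtb46 and H2-Eb1, by log2 changes of 1.26 and 0.87. In that comparison 4 were called lower, among them Cd74 (-1.24), H2-Aa (-0.63) and H2-Ab1 (-0.24). The marker genes named here and beside the monocyte sum were chosen after their values were seen. Over all tested genes 45.7% were called higher and 40.7% lower with TAMo, and 9.37% and 11.0% with TAN. Of 10 tested T cell identity genes, 7 were called higher and 3 lower with TAMo, with Cd8a lower by a log2 change of -0.64 and Cd247 higher by 0.63. With TAN 2 were lower, Lat by -0.24 and Cd8a by -0.13, a count that ran from 0 to 5 when libraries were left out in turn.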

How the data were processed

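The authors deposited FPKM values per gene and library. The build mm10 and the tools featureCounts 1.5.0-p3, HISAT2 2.0.5 and CASAVA are named, per the submitters' processing notes; annotation, gene lengths and strand setting were not given in the sources used here. From the deposited FPKM values, genes reaching 1 FPKM in 2 or more libraries were kept, 1 was added, and log2 values of the 6 libraries were fitted with limma 3.58.1 in R 4.3.3 (empirical Bayes with a mean-variance trend, 3 residual and 4.07 prior degrees of freedom), with Benjamini-Hochberg adjustment. The procedure was run on simulated data whose noise was drawn from the spread that the fit itself estimated, so that spread was not tested. Members and lists were chosen with earlier results of these data known. Within lists, up to 4 called genes with the largest change are named per comparison; any gene of the 4 lists nearest to the members may be named. Some genes that these rules select are not reported here. Positions come from GENCODE M21, promoters from RefSeq GRCm38.p6. Read depth was read from the value of 1 read in 7708 genes with 1 transcript (tolerance 0.1 of a read, up to 40 reads), where 98.7% to 99.0% of values were whole. Alternatives covered the pseudocount, filter, variance trend, scaling, fitted groups, replicate block and leaving out each library.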

Additional observations from a re-analysis of the deposited data

How the results depend on the processing

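The members were refitted in 169 combinations of member and setting per comparison. Calls were lost in 8 of them for TAN against vehicle, in 2 for TAMo against vehicle and in 6 for TAN against TAMo, and no member changed direction while called; the cause was not tested. With no filter on low values, the members called lower with TAN numbered 2 in place of 4, and over all genes 644 were called higher and 687 lower in place of 1005 and 1175. Leaving out 1 library at a time gave 2 to 4 members lower with TAN (2 without vehicle library 2 or TAN library 1), 307 to 1297 genes higher and 351 to 1505 genes lower; where a group was left with 1 library, that library was assumed to vary like the others. Slamf6 was not tested when a mean of 5 FPKM was required. Giving each library the same sum of FPKM moved the median of all tested genes with TAMo from 0.06 to 0.25 and the Cd48 change to 0.38; without mitochondrial genes the median was 0.15. The replicate block gave 963 genes higher and 1177 lower with TAN, with 2 members higher and 4 lower as without it. Replicate deviations correlated at 0.06, 0.02 and 0.01 between groups, so libraries of the same replicate number showed little shared deviation. Such values cannot show whether the libraries were paired by culture or mouse, on which the labels are silent. With 2 libraries per group, the calls of Cd226 and Slamf6 with TAN ended when some single libraries were left out, although Slamf6 stayed at -0.40 or below in every setting that tested it.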
